A study of Homo sapiens with 8 samples.

Results

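The genes described here are the BCL2 family, the caspases and the death receptors with their adaptors and inhibitors, chosen by symbol from a list of 53 names. BIM is an alias of BCL2L11, so the list holds 52 genes, and all 52 are among the 62086 genes of the count table. They were measured by RNA sequencing in BG01, a line of human embryonic stem cells (hESCs) kept in mTeSR medium. The cells received 5 µg/mL of anti-M8nAb, a mouse antibody that neutralizes the secreted glycoprotein MFGE-8, or 5 µg/mL of normal mouse IgG as the isotype control, for 12 or 24 h. Each of the 4 groups (anti-M8nAb 12 h, IgG 12 h, anti-M8nAb 24 h and IgG 24 h) has 2 libraries, 8 in all, labelled as biological replicates. No label says that they came from separate cultures, so p-values measure only the spread between these libraries, and all of them come from a single cell line. The study asked what happens to hESC self-renewal and survival when MFGE-8 is blocked.

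Apoptosis runs along an intrinsic and an extrinsic route. In the intrinsic route, BH3-only proteins free the effectors BAX and BAK1 from survival proteins such as BCL2 and MCL1, the mitochondrial outer membrane opens, and cytochrome c assembles APAF1 and caspase-9 into the apoptosome. In the extrinsic route, death receptors recruit FADD and caspase-8 at the plasma membrane, CFLAR holds caspase-8 in check, and RIPK1, RIPK3 and MLKL can instead carry the signal to necroptosis. Human pluripotent stem cells are known to die readily by the intrinsic route.

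The promoters of 4 genes with large responses at 24 h are shown: MLKL and CASP6 were called and fell at least 2-fold, FADD fell by nearly as much, and BBC3 had the largest rise that passed the test at that time. Capitals mark TGANTCA, with any base at N, searched on both strands. The usual site of AP-1 factors such as JUN has C or G at N. The TGAGTCA of BBC3 has that form and the TGAATCA of FADD does not, and shares given below for TGANTCA count every base at N.
MLKL: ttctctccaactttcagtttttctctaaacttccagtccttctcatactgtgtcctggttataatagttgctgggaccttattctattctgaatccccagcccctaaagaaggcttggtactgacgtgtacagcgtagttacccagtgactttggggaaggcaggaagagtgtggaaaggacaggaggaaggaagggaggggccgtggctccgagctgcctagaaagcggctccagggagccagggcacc
CASP6: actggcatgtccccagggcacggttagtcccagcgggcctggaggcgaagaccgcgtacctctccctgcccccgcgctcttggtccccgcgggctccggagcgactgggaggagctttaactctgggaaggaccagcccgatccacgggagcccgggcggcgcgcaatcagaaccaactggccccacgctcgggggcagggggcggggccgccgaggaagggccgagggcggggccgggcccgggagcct
BBC3: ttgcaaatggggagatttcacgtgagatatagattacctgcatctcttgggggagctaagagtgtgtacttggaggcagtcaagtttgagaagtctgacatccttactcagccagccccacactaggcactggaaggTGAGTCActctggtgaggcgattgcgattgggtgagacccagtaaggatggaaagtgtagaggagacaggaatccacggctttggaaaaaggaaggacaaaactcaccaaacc
FADD: gatttcctgtagTGAATCAggcaccggagt
For MLKL (chr16:74700863-74701112, minus strand), CASP6 (chr4:109703446-109703695, minus strand) and BBC3 (chr19:47232668-47232917, minus strand), the 250 bases before the RefSeq start are given (GRCh38.p14). For FADD (chr11:70203305-70203334, plus strand) only 30 bases around the match are given, since its TGAATCA lies from 22 to 28 bases after the start, counted from 1 at the first transcribed base. In BBC3 the match, TGAGTCA, begins 113 bases before the start. RefSeq promoters of 250 bases before to 50 after the start were found for 40 of the 52 genes, 67 promoters in all. TGANTCA was in 6 of the 67 (8.96%), of BBC3, CASP8, CFLAR, FADD and FAS, and in 7.71% of all 35116 promoters. The cAMP response element TGACGTCA was in 2 of the 67 (2.99%), both of BIRC2, and in 1.85% of all promoters. The half-site of the p53 response element was in 4 of the 67 (5.97%), of BAK1, CASP8, CASP9 and FAS, and in 6.63% of all promoters. The full p53 element, a pair of half-sites with a gap of 0 to 13 bases, was in none of the 67 and in 0.0285% of all. Only exact matches inside these promoter windows were counted. With so low a share over all promoters, its absence from the 67 says nothing about p53 at these genes. None of these motifs was found in the windows of MLKL and CASP6. The CASP6 stretch is rich in G and C (74.0%, with 26 CpG dinucleotides in 250 bases), whereas that of MLKL holds 52.0% and 5 and that of BBC3 49.2% and 4.

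Libraries held 21010400 to 21792716 counts over genes. The 9 pluripotency markers, among them POU5F1, NANOG and SOX2, were detected in every group, and their levels summed to between 7996 and 8038 CPM (counts scaled to library size by TMM) with anti-M8nAb and 7109 and 7282 CPM with IgG at 12 h. At 24 h the sums were 6593 and 6794 CPM with anti-M8nAb and 6259 and 6293 CPM with IgG. Markers of the other cells the culture could hold summed to 106 to 116 CPM with anti-M8nAb against 122 to 126 CPM with IgG at 12 h, and to 120 to 124 against 147 to 161 CPM at 24 h, chiefly from COL1A1 and COL1A2, while the fibroblast markers DCN and LUM were at 0 with anti-M8nAb at 24 h. The trophoblast or amnion list of 4 genes moved the other way, to 1.37 to 1.88 CPM with anti-M8nAb against 0.0922 to 0.368 CPM with IgG at 12 h, and 1.85 to 2.43 against 0.266 to 0.529 CPM at 24 h. With IgG, HAND1 and CDX2 of this list were at 0 at 12 h and HAND1 at 24 h. The neuroectoderm list was also higher with anti-M8nAb at 12 h (3.83 to 3.91 CPM, against 0.876 to 1.61 CPM), and at 24 h was at 1.17 to 1.41 against 1.11 to 1.15 CPM. At 24 h the endoderm list was lower (0.730 to 0.828 CPM, against 2.42 to 3.20 CPM), as was the mesendoderm list (1.46 to 1.70 CPM, against 2.25 to 2.58 CPM). With IgG at 24 h, 1 of the 2 endoderm markers was at 0. At 12 h both lists overlapped those of IgG. The endoderm list was then at 2.31 to 3.04 against 1.89 to 2.48 CPM, and the mesendoderm list at 0.736 to 1.40 against 0.599 to 0.966 CPM. The part of these marker levels in the results was not tested. In bulk RNA, fewer cells that express a gene and less of its RNA per cell cannot be told apart. Transcripts of MFGE8, the target of the antibody, were at 944 and 903 CPM with anti-M8nAb and 811 and 823 CPM with IgG at 12 h (log2 fold change 0.18). At 24 h they were at 929 and 935 CPM, against 823 and 860 CPM (log2 fold change 0.15). Both rises passed edgeR's quasi-likelihood test (adjusted p = 0.00152 at 12 h and 0.0052 at 24 h). These RNA levels do not check a block of the protein.

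Per length, the levels of the 52 genes in IgG-treated cells spanned from over 60 FPKM (fragments per kilobase of transcript, scaled to library size) to 0. PMAIP1, the BH3-only protein NOXA, averaged 63.4 FPKM over the 4 IgG libraries (57.7 to 70.8), and the survival protein gene MCL1 averaged 61.2 FPKM (57.5 to 65.6), with overlapping ranges. CYCS, which encodes cytochrome c, followed at 55.4 FPKM and the effector BAX at 47.7 FPKM, again with overlapping ranges. BCL2 itself was at 0.523 FPKM, far under MCL1 and under BCL2L1 (BCL-XL, 19.7 FPKM). Among the caspases CASP6 stood highest at 12.5 FPKM, and CASP8, the initiator of the extrinsic route, was at 0.713 FPKM. The receptor TNFRSF10B (DR5) was at 22.9 FPKM and TNFRSF10A (DR4) at 7.02 FPKM, against 0.0755 FPKM for FAS. FADD was at 26.3 FPKM, RIPK1 at 3.02 FPKM and MLKL at 0.804 FPKM. The length used is that of all annotated exon bases, 29313 for FAS and 5010 for TNFRSF10B, so the order of genes depends on it. In CPM, FAS averaged 1.40 and 2.90 with IgG at 12 and 24 h, against 89.1 and 134 for TNFRSF10B. In the same groups CASP2 (40.6 and 41.3 CPM) stood above CASP6 (24.5 and 22.9 CPM).

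**Figure D1:**
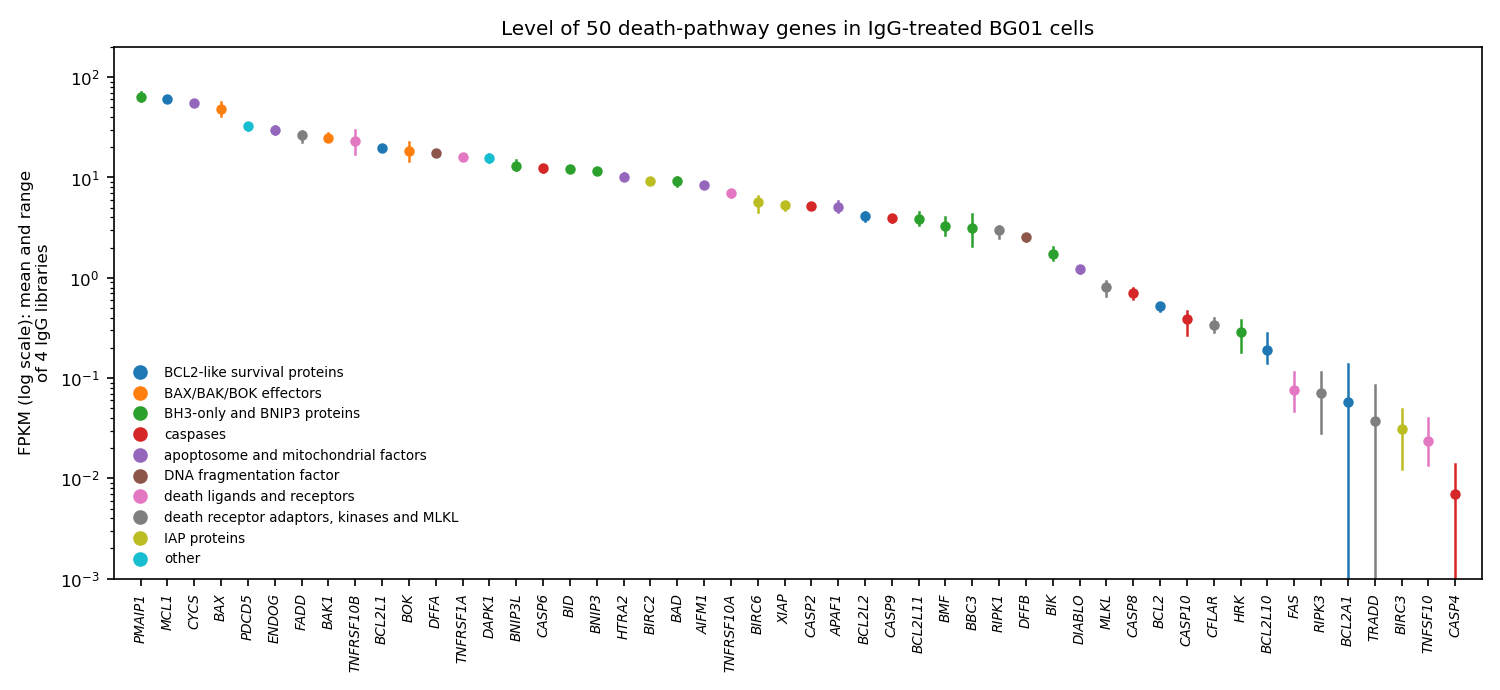
Level of each gene in IgG-treated cells in FPKM on a log axis, as the mean (point) and range (line) of 4 IgG libraries, coloured by role. PMAIP1 (63.4 FPKM) and MCL1 (61.2 FPKM) lead, BCL2 (0.523 FPKM) and FAS (0.0755 FPKM) lie far below, and CASP1 and FASLG, at 0 in every IgG library, cannot be drawn on this axis; lines that run off the bottom reach 0.

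Of the 52 genes, 45 passed the filter on low counts and were tested. The other 7 had at most 8 counts in any library. They are the ligand genes FASLG (0 counts in all 8 libraries) and TNFSF10 (0 to 3 counts), the inflammatory caspases CASP1 (0 to 2) and CASP4 (0 to 4), the survival protein gene BCL2A1 (0 to 5), the receptor adaptor TRADD (0 to 4) and the necroptosis kinase RIPK3 (0 to 8). These 7 were not tested, so whether they differed between the groups is not known. Neither ligand thus gave more than 3 counts in a library, beside the levels of the TRAIL receptors TNFRSF10A and TNFRSF10B given above.

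At 12 h, 6 of the 45 genes were higher with anti-M8nAb (13.3%, against 15.8% of all 20165 genes tested) and 9 were lower (20.0%, against 16.4%; 5 without replicate 1 of IgG 12 h), by edgeR's two-sided quasi-likelihood test at a Benjamini-Hochberg adjusted p under 0.05. At 24 h, 12 were higher (26.7%, against 21.2%) and 10 lower (22.2%, against 21.3%). The median log2 fold change of the 45 was -0.02 at 12 h and -0.01 at 24 h, beside 0.00 at both times over all genes tested. The median size of the change was 0.21 and 0.26, beside 0.26 and 0.32 over all genes. The shares called thus lay near the background at both times, although the 45 genes were expressed above it (median level 31.8 CPM, against 12.1 CPM). Genes both called and changed at least 2-fold were 0 of 45 upward (against 3.40% of all genes tested at 12 h and 4.76% at 24 h) and 2 of 45 downward (against 2.97% and 4.84%). Those lower were MLKL and APAF1 at 12 h and MLKL and CASP6 at 24 h.

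**Figure D2:**
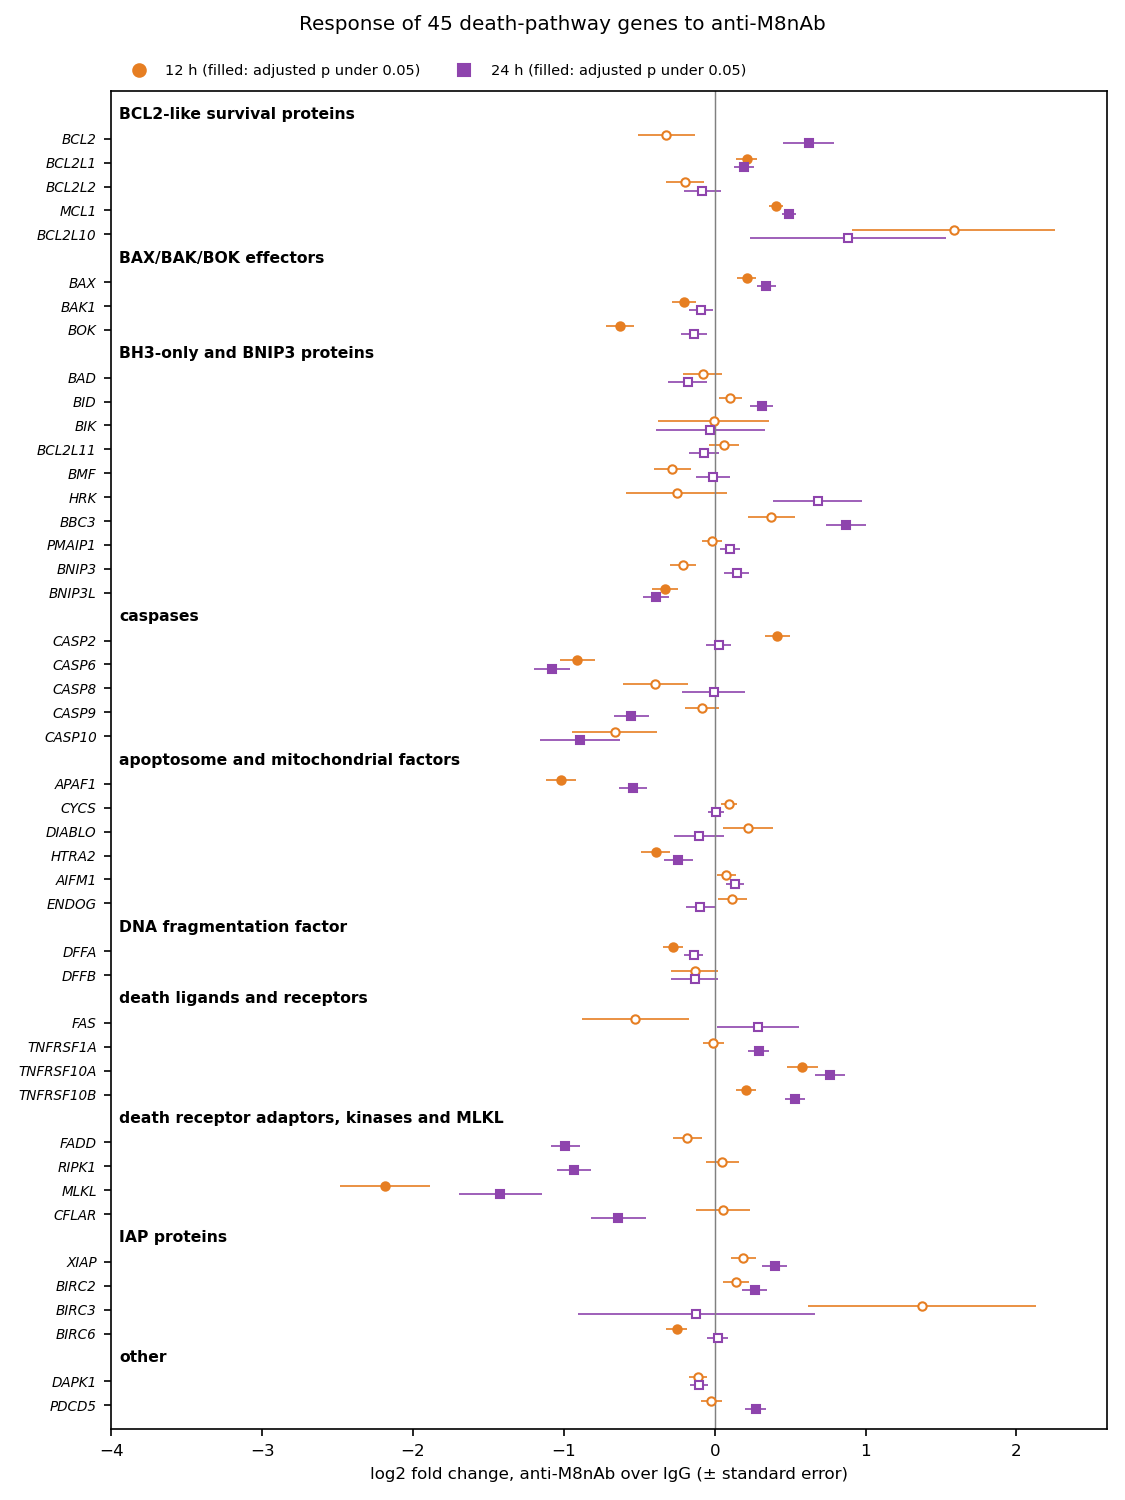
Log2 fold change of anti-M8nAb over IgG for the 45 genes tested, by role, at 12 h (orange circles) and 24 h (purple squares), with bars of 1 standard error and filled symbols where the adjusted p was under 0.05. MLKL lies farthest to the left at both times, and all 4 genes of its group lie left of 0 with filled symbols at 24 h.

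The group of death receptor adaptors and kinases, with MLKL and the inhibitor gene CFLAR, had 4 genes tested (FADD, RIPK1, MLKL and CFLAR). All 4 were lower with anti-M8nAb at 24 h (21.3% of all genes tested were), while 3 of the 4 receptors tested were higher (21.2% of all were). At 12 h, MLKL alone of the 4 downstream genes was called. Both counts depend on which genes each group holds. Other adaptors and receptors were listed among 55 further genes, of which 49 were tested, with 10 higher and 15 lower at 24 h. MLKL encodes the pseudokinase that breaks the plasma membrane in necroptosis (chromosome 16 of GRCh38, 74671855 to 74700960). With anti-M8nAb its level was 0.883 and 1.11 CPM at 12 h, against 4.29 and 4.83 CPM with IgG, and 1.90 and 1.36 CPM at 24 h, against 5.15 and 3.61 CPM. The groups did not overlap at either time, and the values rest on 18 to 116 counts a library. MLKL fell by 2.19 on the log2 scale at 12 h (SE 0.30, adjusted p = 1.04e-07) and by 1.42 at 24 h (SE 0.28, adjusted p = 3.95e-05).

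FADD encodes the adaptor that joins FAS and the TRAIL receptors to caspase-8 (chromosome 11, 70203296 to 70207390). At 24 h it was at 26.1 and 21.2 CPM with anti-M8nAb, against 46.1 and 47.9 CPM with IgG. At 12 h it was at 34.1 and 37.4 CPM, against 38.0 and 43.1 CPM. The 24 h groups lay far apart, at -0.99 on the log2 scale (SE 0.10, adjusted p = 1.12e-11), whereas the 12 h change was -0.18 (adjusted p = 0.141). Of the FADD exon bases, 59.2% overlap ENSG00000254721 on the other strand, which itself changed by -0.25 (log2) at 12 h and by -1.06 at 24 h. Whether reads were counted by strand is not given in the sources used here, so reads of the FADD pair cannot be told apart.

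RIPK1, the kinase that steers receptor signals to survival or death (chromosome 6, 3063824 to 3115187), was at 22.1 and 16.6 CPM with anti-M8nAb at 24 h, against 35.6 and 38.5 CPM with IgG. The 12 h values were 34.9 and 37.1 CPM, between the IgG values of 30.1 and 39.4 CPM. RIPK1 thus fell by 0.94 at 24 h (SE 0.11, adjusted p = 3.28e-09), with overlapping groups at 12 h (log2 fold change 0.05, adjusted p = 0.763). CFLAR, which encodes the caspase-8 inhibitor c-FLIP, was at 5.79 and 4.34 CPM with anti-M8nAb at 24 h, against 7.28 and 8.5 CPM with IgG. At 12 h it was at 7.46 and 6.70 CPM, against 7.14 and 6.49 CPM. The CFLAR groups overlapped at 12 h (log2 fold change 0.06) and not at 24 h, where the log2 fold change was -0.64 (SE 0.18, adjusted p = 0.00394). The call was lost without replicate 2 of IgG 24 h (adjusted p = 0.0678) or of anti-M8nAb 24 h (adjusted p = 0.109), and 10.1% of the CFLAR exon bases overlap genes on the other strand.

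Among the receptors, TNFRSF10A, a receptor for TRAIL, was at 28.4 and 31.2 CPM with anti-M8nAb at 12 h, against 21.2 and 18.6 CPM with IgG, and at 35.7 and 32.8 CPM at 24 h, against 20.1 and 20.3 CPM. Its groups did not overlap at either time. TNFRSF10A rose by 0.58 on the log2 scale at 12 h (SE 0.10, adjusted p = 1.64e-05) and by 0.76 at 24 h (SE 0.10, adjusted p = 3.57e-08). Of its exon bases, 16.7% overlap the opposite-strand genes TNFRSF10A-AS1 and TNFRSF10A-DT, which changed by 0.97 and 0.26 (log2) at 12 h and by 0.74 and 0.81 at 24 h. The other TRAIL receptor, TNFRSF10B, was at 104 and 102 CPM with anti-M8nAb at 12 h, against 92.8 and 85.4 CPM, and at 189 and 198 CPM at 24 h, against 145 and 123 CPM with IgG. It was above IgG in both libraries at each time, and its level in IgG cells was also 1.5 times as high at 24 h as at 12 h. TNFRSF10B was up by 0.21 (log2) at 12 h (SE 0.07, adjusted p = 0.0146) and by 0.53 at 24 h (SE 0.06, adjusted p = 2.95e-09). The TNFRSF10B call at 12 h was lost without replicate 2 of IgG 12 h (adjusted p = 0.201) or replicate 1 of anti-M8nAb 12 h (adjusted p = 0.0561).

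The TNF receptor TNFRSF1A was at 79.2 and 83.3 CPM with anti-M8nAb at 24 h, against 64.0 and 68.8 CPM with IgG. The 12 h values were 67.3 and 62.3 CPM, on either side of the IgG values of 65.5 and 65.0 CPM. TNFRSF1A was therefore higher at 24 h (log2 fold change 0.29, SE 0.07, adjusted p = 6.76e-04), with 0.99 times the IgG level at 12 h. FAS, the receptor of FAS ligand, did not pass the test at either time (log2 fold changes -0.53 and 0.29), on 16 to 78 counts a library. TNFRSF10C, a decoy receptor for TRAIL outside the 52 genes, was at 1.27 and 1.17 CPM with anti-M8nAb at 24 h, against 2.31 and 2.91 CPM with IgG. It fell by 1.10 (adjusted p = 0.00711), opposite in direction to the signalling receptors TNFRSF10A and TNFRSF10B. This rests on 1 gene at a low level, whose call was not followed through the alternative fits. TNFRSF10C was named because it was called with a change of at least 2-fold. The other decoy receptors listed, TNFRSF10D and TNFRSF11B, had no such call at 12 or 24 h. Smaller changes of these are not given here, so whether the decoy receptors moved alike is not shown.

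Of the 5 caspases tested, 3 were lower at 24 h (CASP6, CASP9 and CASP10; 21.3% of all genes were) and none was higher (21.2% of all genes were). CASP6, an executioner caspase known for cleaving nuclear lamins (chromosome 4, 109688622 to 109703583), was at 12.9 and 13.2 CPM with anti-M8nAb at 12 h, against 23.7 and 25.3 CPM, and at 10.5 and 11.2 CPM at 24 h, against 21.2 and 24.5 CPM with IgG. Its level with anti-M8nAb was 0.53 times that with IgG at 12 h and 0.47 times at 24 h, with little spread between replicates. CASP6 fell by 0.91 on the log2 scale at 12 h (SE 0.12, adjusted p = 2.87e-08) and by 1.08 at 24 h (SE 0.12, adjusted p = 4.57e-10). CASP9, the initiator that the apoptosome activates, was at 13.3 and 13.4 CPM with anti-M8nAb at 24 h, against 18.5 and 20.7 CPM. At 12 h it was at 19.8 and 20.4 CPM, against 21.3 and 21.4 CPM. CASP9 fell at 24 h (log2 fold change -0.55, SE 0.12, adjusted p = 1.16e-04), and at 12 h the change of -0.09 did not pass.

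CASP10, a receptor-linked initiator close to caspase-8, was at 2.09 and 2.19 CPM with anti-M8nAb at 24 h, against 3.95 and 4.01 CPM with IgG. The 12 h values were 1.91 and 1.54 CPM, against 3.09 and 2.39 CPM. The CASP10 groups were apart at both times, but only the change at 24 h passed (log2 fold change -0.89, SE 0.26, adjusted p = 0.00532), and that at 12 h was -0.66 (adjusted p = 0.0683). CASP2, an initiator tied to DNA damage and mitosis, moved otherwise. It was at 55.4 and 53 CPM with anti-M8nAb at 12 h, against 39.95 and 41.3 CPM, and at 41.6 and 42.5 CPM at 24 h, against 42.9 and 39.7 CPM with IgG. CASP2 rose by 0.41 at 12 h (SE 0.08, adjusted p = 7.44e-05), and at 24 h its groups overlapped (log2 fold change 0.03). CASP8 did not pass at either time (log2 fold changes -0.39 and -0.01).

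APAF1, the scaffold of the apoptosome (chromosome 12, 98645290 to 98735433), was lower at both times. It was at 19.3 and 17.2 CPM with anti-M8nAb at 12 h, against 38.9 and 35.1 CPM, and at 27.8 and 29.8 CPM at 24 h, against 44.1 and 39.8 CPM with IgG. The log2 fold change of APAF1 was -1.02 at 12 h (SE 0.10, adjusted p = 3.05e-11) and -0.54 at 24 h (SE 0.09, adjusted p = 7.26e-06). HTRA2, a mitochondrial protease that binds IAP proteins, fell by 0.39 and 0.24, and 32.3% of its exon bases overlap AUP1 and LOXL3 on the other strand. LOXL3 itself had log2 fold changes of -0.65 and -0.51. The HTRA2 call was lost at 12 h without replicate 1 of IgG 12 h (adjusted p = 0.0792) and at 24 h without replicate 2 of IgG 24 h (0.138) or either anti-M8nAb 24 h library (0.158 and 0.0827). The other mitochondrial factors, CYCS, DIABLO (SMAC), AIFM1 and ENDOG, did not pass at either time (log2 fold changes from -0.10 to 0.22). Of the DNA fragmentation factor, the inhibitory subunit DFFA fell by 0.28 at 12 h (adjusted p = 6.32e-04), a call lost without replicate 1 of IgG 12 h (adjusted p = 0.0736). Of the DFFA exon bases, 10.2% overlap genes on the other strand. The nuclease subunit DFFB did not pass.

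**Figure D3:**
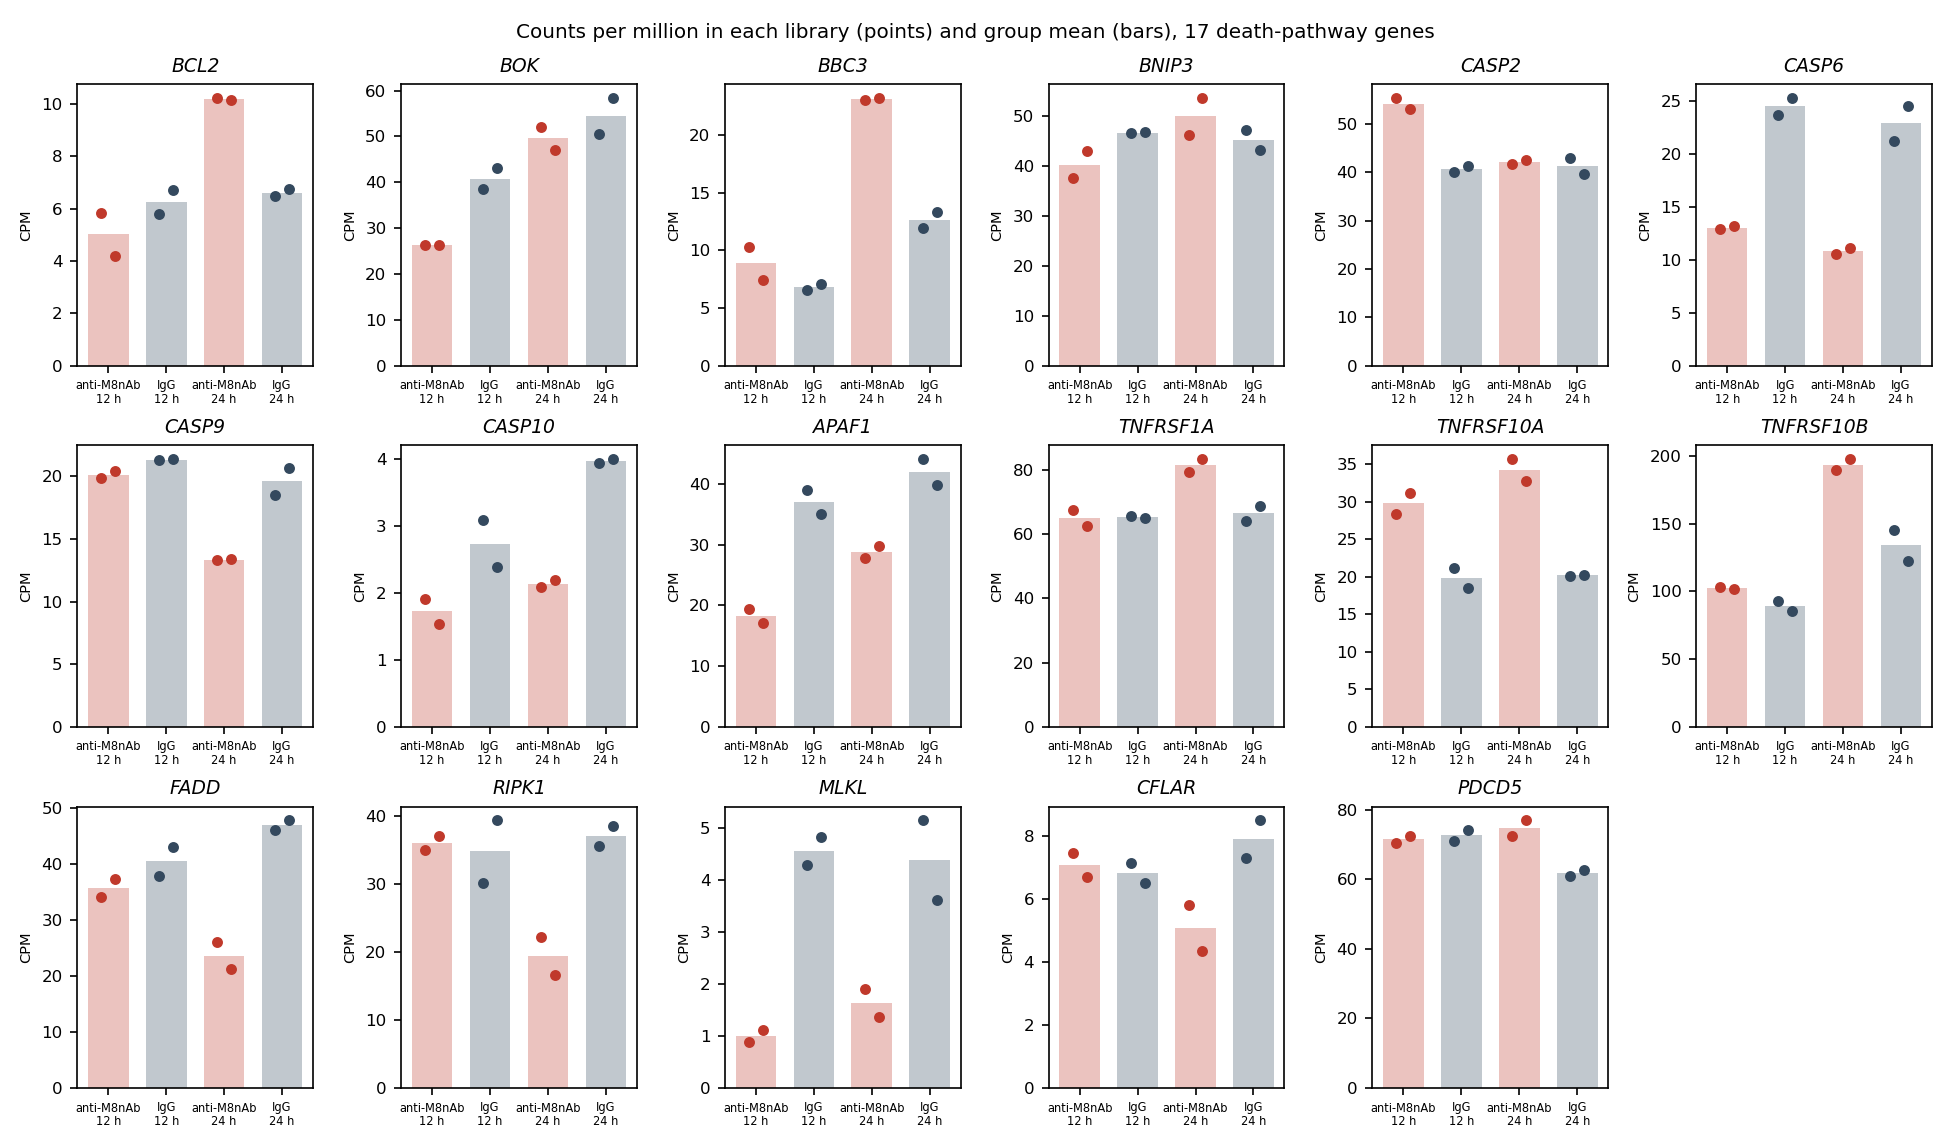
TMM-scaled CPM in each of the 8 libraries (points) with the mean of each group (bars, from 0) for the 17 genes called at a time with a change of 0.5 or more (log2), or with a response that differed between the times. MLKL, CASP6 and APAF1 are lower with anti-M8nAb (red) than with IgG (dark blue) at both times, and FADD and RIPK1 stand clearly apart at 24 h.

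Among the BCL2-like survival proteins, 2 of 5 tested rose at 12 h (15.8% of all genes tested did) and 3 of 5 at 24 h (21.2% of all), and none fell. BCL2, the founding member of the family, was at 10.2 and 10.1 CPM with anti-M8nAb at 24 h, against 6.48 and 6.74 CPM with IgG. At 12 h it was at 5.84 and 4.20 CPM, against 5.81 and 6.71 CPM. BCL2 rose by 0.62 at 24 h (SE 0.17, adjusted p = 0.00277), with overlapping groups at 12 h (log2 fold change -0.32, adjusted p = 0.196). Its call at 24 h was lost with limma on FPKM (adjusted p from 0.134 to 0.207 in the 3 fits). MCL1, a short-lived survival protein, was at 473 and 467 CPM with anti-M8nAb at 12 h, against 354 and 355 CPM, and at 532 and 560 CPM at 24 h, against 394 and 382 CPM. The MCL1 libraries hardly differed within a group, and the rise was 0.41 at 12 h (SE 0.05, adjusted p = 2.91e-09) and 0.49 at 24 h (SE 0.05, adjusted p = 8.12e-12). BCL2L1 rose by 0.21 and 0.19, and 41.3% of its exon bases overlap ABALON on the other strand (log2 fold changes 0.13 and 0.06). Its call was lost at 12 h without replicate 1 of IgG 12 h (adjusted p = 0.22) or replicate 2 of anti-M8nAb 12 h (0.374), and at 24 h without either IgG 24 h library (0.0583 and 0.0905) or replicate 2 of anti-M8nAb 24 h (0.138). BCL2L10 had log2 fold changes of 1.58 and 0.88 on 4 to 14 counts a library and did not pass, nor did BCL2L2.

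The 3 effectors that open the mitochondrial outer membrane did not move together. BAX rose by 0.21 at 12 h (adjusted p = 0.00715) and 0.34 at 24 h (SE 0.06, adjusted p = 1.06e-05), to a mean of 169 CPM with anti-M8nAb at 24 h, against 134 CPM. The BAX call at 12 h was lost without replicate 2 of IgG 12 h (adjusted p = 0.0782) or replicate 1 of anti-M8nAb 12 h (adjusted p = 0.0596). BAK1, its close relative, fell by 0.20 at 12 h (adjusted p = 0.0453), a call that leaving out any 1 of the 4 libraries of that time took away (adjusted p from 0.102 to 0.246). BOK, an effector that depends less on the survival proteins, was at 26.5 and 26.3 CPM with anti-M8nAb at 12 h, against 38.5 and 43.1 CPM, and at 52.1 and 47.1 CPM at 24 h, against 50.5 and 58.4 CPM with IgG. BOK was thus lower at 12 h alone (log2 fold change -0.63, SE 0.09, adjusted p = 4.52e-07), with overlapping groups at 24 h (-0.14).

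Of the 10 BH3-only and BNIP3 proteins, 2 rose (21.2% of all genes tested did) and 1 fell (21.3% of all) at 24 h. BBC3, the p53 target PUMA (chromosome 19, 47220822 to 47232766), was at 23.0 and 23.2 CPM with anti-M8nAb at 24 h, against 11.9 and 13.3 CPM. The 12 h values were 10.3 and 7.43 CPM, against 6.54 and 7.13 CPM with IgG. BBC3 was higher in both anti-M8nAb libraries at each time, and its IgG level too was 1.84 times as high at 24 h as at 12 h. BBC3 rose by 0.87 at 24 h (SE 0.13, adjusted p = 5.87e-07), and the change of 0.37 at 12 h did not pass (adjusted p = 0.0612). BID, which caspase-8 cleaves to link the extrinsic to the intrinsic route, rose by 0.31 at 24 h (SE 0.07, adjusted p = 6.41e-04). BNIP3L, a mitophagy receptor, fell by 0.33 at 12 h (adjusted p = 0.00268) and 0.39 at 24 h (adjusted p = 2.51e-04). Its call at 12 h was lost without replicate 1 of IgG 12 h (adjusted p = 0.0867) or replicate 2 of anti-M8nAb 12 h (adjusted p = 0.075).

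BNIP3, the other mitophagy receptor of the list, was at 37.5 and 43.1 CPM with anti-M8nAb at 12 h, against 46.6 and 46.8 CPM, and at 46.3 and 53.7 CPM at 24 h, against 47.2 and 43.3 CPM with IgG. BNIP3 passed at neither time by itself (log2 fold changes -0.21 and 0.14). PMAIP1, another p53 target and the most abundant of the 52 genes per length, did not pass either (-0.02 and 0.10), nor did BAD, BIK, BCL2L11 (BIM), BMF and HRK. HRK, on 27 to 70 counts a library, had a log2 fold change of 0.68 at 24 h (adjusted p = 0.0608).

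The IAP proteins restrain caspases. XIAP, their most direct inhibitor, rose by 0.40 at 24 h (SE 0.08, adjusted p = 9.39e-05), to a mean of 66.6 CPM with anti-M8nAb, against 50.6 CPM, a call lost with limma on FPKM (adjusted p from 0.0577 to 0.139 in the 3 fits). BIRC2 (cIAP1), a ubiquitin ligase for RIPK1, rose by 0.26 at 24 h (adjusted p = 0.0106), a call lost without replicate 2 of IgG 24 h (adjusted p = 0.169) or of anti-M8nAb 24 h (adjusted p = 0.113). BIRC6, a giant IAP, fell by 0.25 at 12 h (adjusted p = 0.00383), a call lost without replicate 2 of IgG 12 h (adjusted p = 0.0739), and BIRC3, with 2 to 10 counts a library, did not pass. PDCD5, which is known to act in p53-linked apoptosis, was at 72.4 and 77.1 CPM with anti-M8nAb at 24 h, against 61.0 and 62.7 CPM. At 12 h it was at 70.6 and 72.3 CPM, against 71.1 and 74.1 CPM with IgG. PDCD5 was higher at 24 h (log2 fold change 0.27, SE 0.07, adjusted p = 0.00132), with overlapping groups at 12 h, and the kinase gene DAPK1 passed at neither time.

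The response itself differed between the times in 11 of the 45 genes. It was more positive at 24 h than at 12 h in 7 (15.6%, against 5.79% of all genes tested) and more negative in 4 (8.89%, against 6.54%), by the same edgeR test on the difference of the log2 fold changes. The change was greatest in RIPK1 (-0.99, SE 0.16, adjusted p = 9.96e-06), FADD (-0.81, SE 0.13, adjusted p = 2.47e-05) and BCL2 (0.94, SE 0.25, adjusted p = 0.00896). RIPK1 and FADD had little change at 12 h and fell at 24 h, while the fitted change of BCL2 lay below 0 at 12 h and above 0 at 24 h. The gene ENSG00000254721, which overlaps FADD on the other strand, changed by -0.25 at 12 h and -1.06 at 24 h. The difference in FADD thus cannot be told apart from one in that gene. In BOK (0.49, adjusted p = 0.00546) and APAF1 (0.48, adjusted p = 0.0153) a fall at 12 h was smaller at 24 h. TNFRSF10B (0.33, adjusted p = 0.0137), TNFRSF1A (0.30, adjusted p = 0.0384), PDCD5 (0.30, adjusted p = 0.0390) and BNIP3 (0.36, adjusted p = 0.0456) were more positive at 24 h. CASP2 (-0.39, adjusted p = 0.0189) and CASP9 (-0.47, adjusted p = 0.0456) were more negative.

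Leaving out each library in turn, RIPK1 and FADD alone of the 11 passed every time. The count of 11 became 4 and 5 without replicates 1 and 2 of IgG 12 h, 6 without replicate 2 of anti-M8nAb 12 h, of IgG 24 h or of anti-M8nAb 24 h, and 8 to 10 without the others. BCL2 was lost without replicate 2 of IgG 12 h (adjusted p = 0.078) or of anti-M8nAb 12 h (adjusted p = 0.0811), and BOK without replicate 2 of IgG 12 h (0.0933) or replicate 1 of IgG 24 h (0.0604). TNFRSF10B was lost without 3 of the libraries, APAF1 and CASP2 without 4, TNFRSF1A and BNIP3 without 5, and CASP9 and PDCD5 without 7. The highest adjusted p without a library was 0.174 for TNFRSF10B, 0.142 for APAF1, 0.0947 for CASP2, 0.21 for TNFRSF1A, 0.279 for BNIP3, 0.15 for CASP9 and 0.222 for PDCD5.

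**Figure D4:**
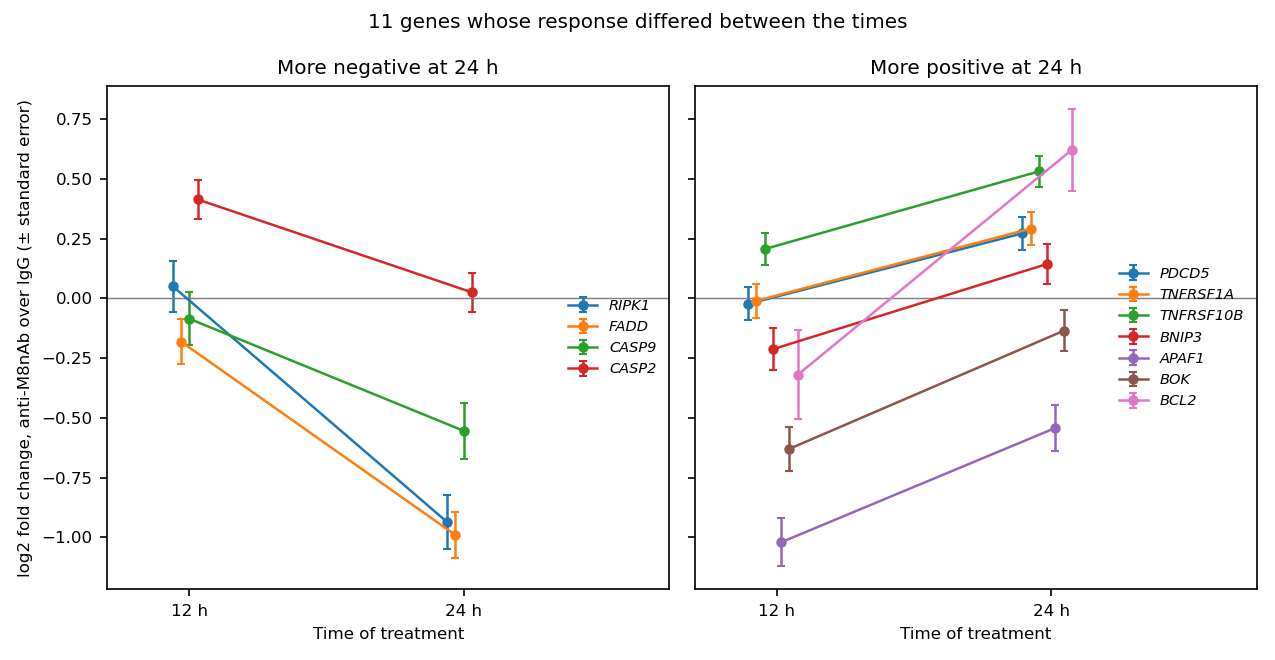
Log2 fold change of anti-M8nAb over IgG at 12 and 24 h, with bars of 1 standard error, for the 11 genes whose response differed between the times. RIPK1 and FADD start near 0 at 12 h and lie at -0.94 and -0.99 at 24 h (left panel), and BCL2 goes to 0.62 at 24 h (right panel).

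Beside the 52 genes, 55 further genes of the death pathways were listed, such as adaptors, decoy receptors and mitochondrial channels, and 49 of them were tested. At 12 h 9 were higher (18.4%, against 15.8% of all genes tested) and 12 lower (24.5%, against 16.4%). At 24 h 10 were higher (20.4%, against 21.2%) and 15 lower (30.6%, against 21.3%), with log2 fold changes from -1.10 to 0.80 at 24 h. Their response differed between the times in 9, with 5 more positive (10.2%, against 5.79%) and 4 more negative (8.16%, against 6.54%) at 24 h. The medians of these genes were -0.10 at 12 h and -0.12 at 24 h, and TNFRSF10C, given above, was the only one of the 49 called at 12 or 24 h with a change of at least 2-fold.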

How the data were processed

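For the 8 libraries, the authors used Trimmomatic for trimming, STAR in its 2-pass mode for alignment to GRCh38.p14, Picard for removing duplicates and HTSeq with Ensembl genes for counting. FastQC 0.11.9 and GATK are also named by the submitters. The deposited table holds raw counts per gene, and a second deposited table holds FPKM that the authors computed with RNAnorm, in exact proportion to count over length in the 13314 genes checked. Either file has 4 more columns, of other samples, which are not used here. The count table has 1005 lines with a blank gene name, which hold 53.3 to 54.1% of all counts and stayed out of library sizes and tests. All 62086 gene identifiers were matched to GENCODE symbols after the version was left off.

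Counts were filtered by edgeR's filterByExpr, which left 20165 genes, and scaled by TMM. The model, run in edgeR 4.0.16 (R 4.3.3), had 1 coefficient per group. The common biological coefficient of variation was 5.53%. Anti-M8nAb was compared with IgG at 12 h and at 24 h, and the 24 h response with the 12 h response, by two-sided quasi-likelihood F tests, with p-values adjusted by the Benjamini-Hochberg method over all genes tested. A gene was called at an adjusted p under 0.05. The fit was tested on simulated data. Values in every library are given for the 17 genes that were called at a time with a change of 0.5 or more on the log2 scale, up or down, or whose response differed between the times. MCL1 was added after its values were seen. The genes, lists and motifs were chosen with earlier results of these data known, so they are no independent choice. Replicates of a group differed by more than counting noise, with a chi-square of 2.28 to 4.50 per gene. Alternatives were DESeq2 1.42.0, its size factors, other filters, limma 3.58.1 on log2(FPKM + 1) or log2(FPKM + 0.1), a 2-fold threshold, each time alone, a term for the replicate number and each library left out in turn. Exon overlap with genes on the other strand was computed from GENCODE and is given where it is 10% or more of a gene the text discusses for its change. Promoter sequences are those of RefSeq for GRCh38.p14. The search of proteins for the BH3 core was not run.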

Additional observations from a re-analysis of the deposited data

Results flagged for a closer look

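The response to anti-M8nAb differed between 24 and 12 h in 11 genes by edgeR's quasi-likelihood F test of the difference itself, and each is given here as the log2 fold change at 24 h minus that at 12 h. It was -0.99 for RIPK1, -0.81 for FADD, -0.47 for CASP9 and -0.39 for CASP2. It was 0.94 for BCL2, 0.49 for BOK, 0.48 for APAF1, 0.36 for BNIP3, 0.33 for TNFRSF10B, 0.30 for TNFRSF1A and 0.30 for PDCD5. Reads of FADD cannot be told apart from those of ENSG00000254721 on the other strand, so the value for FADD may not be its own. Both RIPK1 and FADD kept an adjusted p under 0.05 without each of the 8 libraries, whereas each of the other 9 lost it without at least 2 of them.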

How the results depend on the processing

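Of the genes called, 7 of 15 at 12 h (APAF1, BOK, CASP2, CASP6, MCL1, MLKL and TNFRSF10A), 14 of 22 at 24 h and 0 of 11 for the difference between the times kept the call under every alternative that gave them a value, the 2-fold threshold aside. At 24 h, BCL2 and XIAP were lost with limma on FPKM alone (all 3 fits), BAX and TNFRSF1A in its unfiltered fit alone, and BCL2L1, BIRC2, CFLAR and HTRA2 without single libraries as well as in other fits. For the difference, FADD was lost under 1 of 16 alternatives and RIPK1 under 3, all of them limma on FPKM. No fold change of a called gene changed sign. With the replicate number as a replicate block, the counts were 6 higher and 9 lower at 12 h, 12 and 10 at 24 h, and 8 and 3 for the difference, where CASP9 was lost. Deviations of same-numbered libraries correlated between -0.0372 and 0.0268, so the numbers were not taken to pair the libraries. DESeq2 called 7 genes for the difference, 4 of them more positive, against 11 and 7 by edgeR. Without the filter on low counts, 2 were called for the difference, 0 more positive and 2 more negative. With limma on log2(FPKM + 1), log2(FPKM + 0.1) and log2(FPKM + 1) without a filter, 3, 3 and 3 genes were higher at 12 h, and 1, 1 and 0 were called for the difference (0, 0 and 0 more positive, 1, 1 and 0 more negative). The unfiltered limma fit also called 9 genes in all at 12 h and 6 higher at 24 h. MLKL fell by 0.63 and 0.49 at the smallest over all alternatives, on the log2(FPKM + 1) scale, where a pseudocount of 1 exceeds its level. A threshold of 2-fold left 2 genes at 12 h (0 higher and 2 lower), 2 at 24 h (0 higher and 2 lower) and 0 for the difference (0 more positive and 0 more negative). The causes of these changes were not tested.

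Leaving out each library in turn, the called genes numbered 10 to 16 at 12 h (4 to 6 higher and 5 to 10 lower), 18 to 24 at 24 h (10 to 14 higher and 8 to 11 lower) and 4 to 10 for the difference (2 to 7 more positive and 2 to 3 more negative). With 2 libraries a group, MLKL, BCL2L10, BIRC3, HRK and FAS rest on few counts, and 7 of the 52 genes had too few to be tested.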
